A study of Mus musculus with 12 samples.

Results

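The stretch described here is a run of 4042 neighbouring transcripts, from uc007hmr.2 to uc007mwp.2, that occupies data rows 5649 to 9690 of 55419 in the order shared by every deposited table. It makes up 7.29% of all transcripts, and the other 51377 served as the comparison. Its members were chosen by position, and the position was set because transcripts there had higher levels in cells with an altered Chd8 gene than in wild-type (WT) cells. The values of the mutant groups against WT that follow are therefore a description of how large and how even that difference was, and they carry no test. RNA was sequenced in 12 libraries from mouse embryonic stem cells (ESC) kept in 2i medium and from neural progenitor cells (NPC) derived from such cells. In each cell type there were WT cells, cells that carried 1 altered Chd8 copy (CHD8+/-, HET) and cells in which neither copy was intact (CHD8-/-, KO), which made 6 groups of 2 libraries. Whether the libraries of a group were grown separately, and from how many lines each genotype was taken, is not given in the labels, so any p-value measures the spread between libraries, which may be technical.

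CHD8 is an ATP-dependent chromatin remodeller of the chromodomain helicase family, and heterozygous loss of its gene in humans is a known cause of a form of autism. The 2i medium contains inhibitors of MEK and GSK3 and holds mouse ESC in a naive pluripotent state, while NPC are dividing cells committed to the neural lineage. RNA-seq counts are relative: a library's reads are divided among all its transcripts, so a level is a share of that library. The log2 ratio of 3 to 2, 0.585, was used as a ruler for the size of the differences. It is the value that would be seen if every member had 3 units of RNA in a mutant for each 2 in WT.

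The libraries held between 9062447 and 14766212 estimated counts. The files do not pair the transcripts with gene names, and 0 identifiers matched the name tables used here, so the level of Chd8 and the markers of ESC and NPC were not checked in these libraries, and the genotypes and cell types are those of the labels. In bulk RNA, fewer cells of a type and less RNA per cell cannot be told apart.

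The identifiers and lengths of the members are described next. A run of neighbouring rows was chosen, so alike and ordered identifiers go with that choice. Of the 4042 identifiers, 3528 began with uc007, 507 with uc011 and 7 with uc009, and none with uc008 or uc012. The uc007 prefix was carried by 87.3% of members and by 25.9% of the other transcripts. Identifiers of this prefix ran in nearly ascending order: 81 stood before the preceding one, and none was more than 4 places from its sorted position. The sources used here do not state what the row order follows, and no genome position is assigned to the stretch. The median member was 2245 bases long (quartiles 1292 and 3500.75), against 2133 bases (1086 and 3425) for the other transcripts. No counts in any library were found for 12.5% of members and for 20.2% of the others. After the filter on low counts, 2494 members were among the 30021 transcripts tested, and 1700 of these had a mean of at least 2 CPM (counts scaled to library size), as did 18218 other transcripts. The sizes below are over those 1700 and 18218.

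The share of a library's counts that fell on the stretch separated the mutant groups from WT in both cell types. A single transcript outside the stretch, uc009vew.1, held 10.1% to 27.4% of the counts and was left out of the total. In ESC the stretch then held 8.47% and 8.47% of counts in the WT libraries, 10.5% and 10.6% in HET and 11.2% and 10.5% in KO. In NPC it held 9.06% and 8.97% in WT, 10.5% and 10.8% in HET and 9.75% and 9.79% in KO. Both libraries of each mutant group lay above both WT libraries of the same cell type. KO was the lower of the mutant groups in NPC, at 9.77% ± 0.0286 against 10.7% ± 0.202 in HET (SD, n = 2 each), whereas in ESC the ranges of HET and KO overlapped.

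A median over transcripts, which gives each member the same weight, ordered the groups in the same way in NPC and parted HET from KO in ESC. For each library the median deviation of members from the mean of their cell type was taken on the log2 scale, and that of the other transcripts was subtracted. In ESC this gave -0.25 and -0.30 in WT, 0.083 and 0.075 in HET and 0.20 and 0.17 in KO. In NPC it gave -0.19 and -0.18 in WT, 0.157 and 0.158 in HET and 0.017 and 0.0028 in KO. No group overlapped another within a cell type, and replicates lay within 0.047 of each other on this log2 scale. The order was WT, HET, KO in ESC and WT, KO, HET in NPC.

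**Figure D1:**
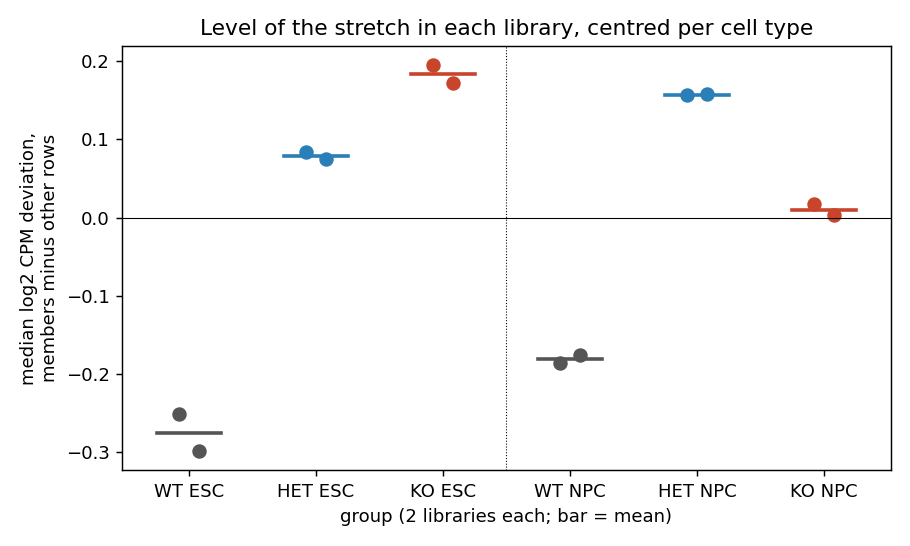
Median log2 deviation of the stretch's transcripts from the mean of their cell type, minus that of the other transcripts (y axis), for each of the 12 libraries by group (x axis). The WT libraries are lowest in both cell types, KO lies above HET in ESC, and KO lies between WT and HET in NPC.

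In HET the stretch stood higher by nearly the same amount in both cell types, and in KO the amount differed more between them. The shift is the median log2 fold change of members minus that of the other transcripts. For HET against WT it was 0.37 in ESC, a fold of 1.30, and 0.34 in NPC, a fold of 1.27. For KO against WT it was 0.45 in ESC, a fold of 1.37, and 0.19 in NPC, a fold of 1.14. HET and KO were compared with the same WT libraries, so the values of a cell type are not independent. As a share of log2(3/2) the shifts were 63.8% and 58.5% for HET in ESC and NPC, and 77.5% and 32.8% for KO. Each was below the reference. KO against HET gave 0.10 in ESC and -0.16 in NPC. A ratio of summed counts gave smaller shifts, of 0.28 and 0.31 for HET and KO in ESC and 0.20 and 0.11 in NPC, and 0.027 and -0.09 for KO against HET. With uc009vew.1, which is outside the stretch, left out of the sums, these were 0.35 and 0.39 in ESC, 0.27 and 0.13 in NPC, and 0.040 and -0.14 for KO against HET.

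The difference was spread over the members rather than held by a few of them. In ESC 76.2% of members in HET and 76.8% in KO lay above the median of the other transcripts, and in NPC 77.3% in HET and 65.1% in KO. Low and high quantiles moved by similar amounts in HET and in KO ESC. Members minus others at the 10th, 25th, 75th and 90th percentile of the log2 fold change came to 0.36, 0.33, 0.40 and 0.41 for HET in ESC. For KO in ESC they came to 0.40, 0.44, 0.48 and 0.45, and for HET in NPC to 0.27, 0.33, 0.33 and 0.38. In KO NPC the upper percentiles moved less than the lower ones, at 0.22, 0.22, 0.15 and 0.12. The interquartile range of members in ESC was 0.67 for HET and 0.84 for KO, and in NPC 0.58 and 0.70, beside 0.61, 0.80, 0.58 and 0.76 for the other transcripts, so the whole distribution was displaced by less than its own width. Members are not independent of each other: isoforms of a gene share reads, and a gene can be counted more than once.

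**Figure D2:**
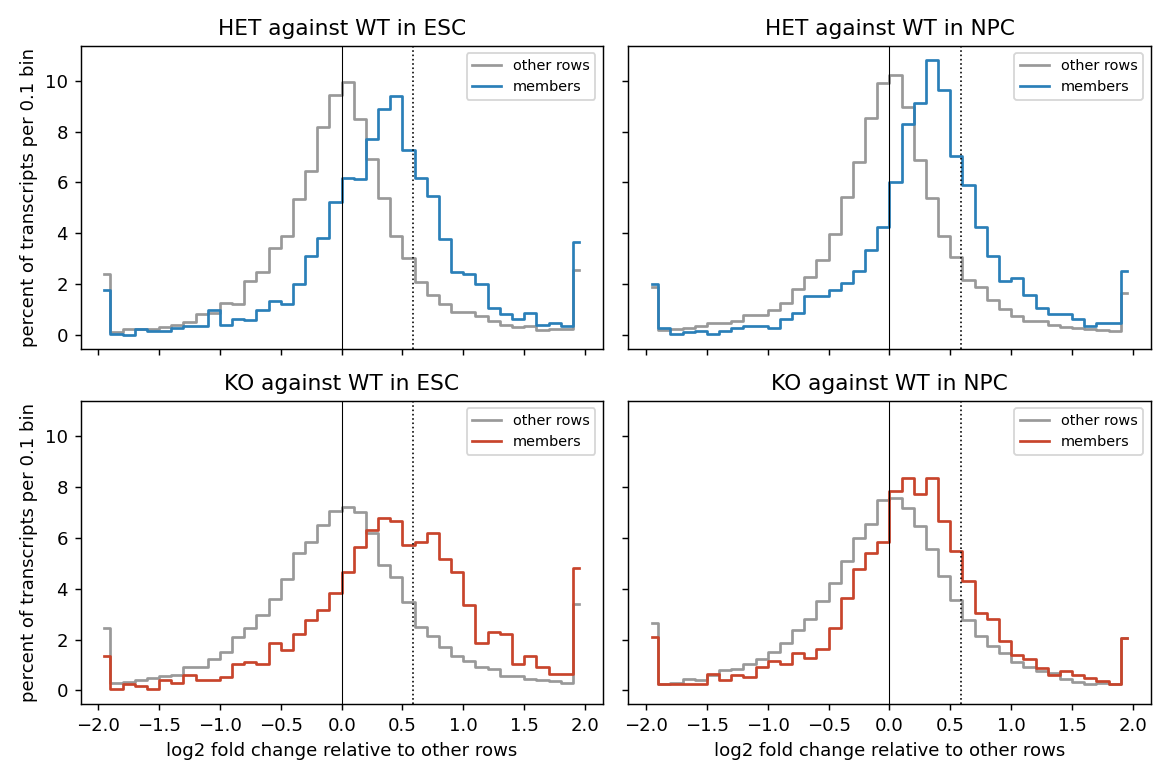
Distribution of the log2 fold change against WT, relative to the median of the other transcripts (x axis), as the share of transcripts (y axis), for members of the stretch and for the other transcripts, with 1 panel per mutant group and cell type. The bins at each end also hold values beyond the axis. The dotted line marks log2(3/2). The members' distribution is displaced to the right as a whole in HET and in KO ESC, and least in KO NPC.

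The size of the shift depended little on how abundant or how long the transcript was. For 484 members at a mean of 2 to 5 CPM, 598 at 5 to 20, 470 at 20 to 100 and 148 above 100, the shift in HET ESC was 0.31, 0.41, 0.36 and 0.38. In KO ESC it was 0.37, 0.49, 0.46 and 0.51, in HET NPC 0.32, 0.36, 0.34 and 0.31, and in KO NPC 0.16, 0.19, 0.20 and 0.17. The scatter narrowed with abundance. Among members above 100 CPM, 89.2% (HET) and 91.9% (KO) in ESC and 88.5% and 77.0% in NPC had a log2 fold change above 0, where the other transcripts of that level had 50.6%, 52.2%, 44.2% and 55.0%. Over 4 classes of transcript length, bounded by the quartiles of all transcripts, the shift ran from 0.33 to 0.41 in HET ESC, 0.42 to 0.50 in KO ESC, 0.31 to 0.37 in HET NPC and 0.18 to 0.21 in KO NPC.

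**Figure D3:**
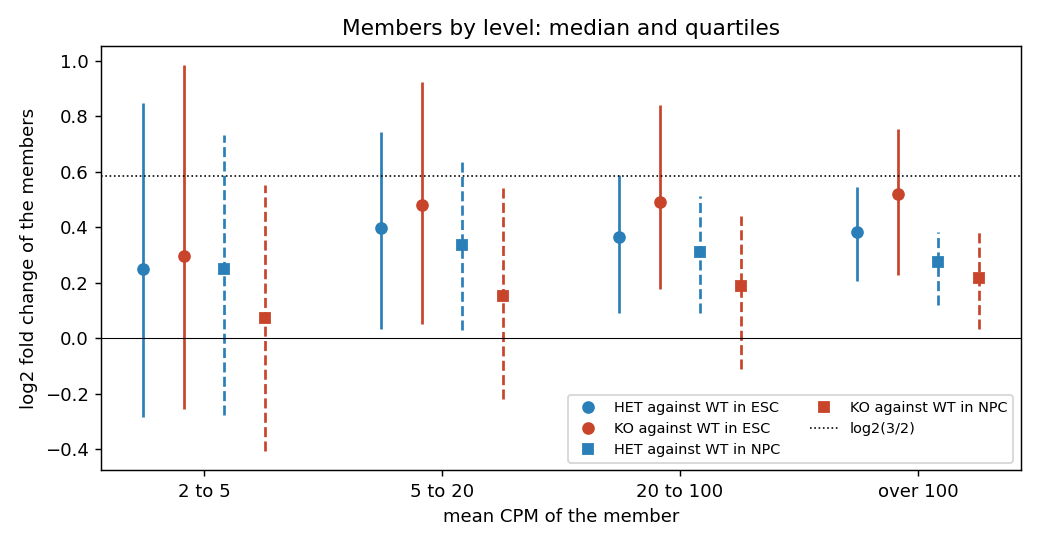
Median (points) and quartiles (lines) of the members' log2 fold change against WT (y axis) by the mean CPM of the member (x axis), for each mutant group and cell type, with log2(3/2) as a dotted line. The quartiles draw together as the level rises while the medians stay below the dotted line in all groups.

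In the upward direction, single members separated from WT most often in KO ESC and least often in KO NPC. Both mutant libraries lay above both WT libraries for 755 of 1700 members in HET ESC, which is 44.4% where 20.1% of all transcripts at that level did so. For KO ESC the count was 858, or 50.5% beside 25.3%, for HET NPC 772, or 45.4% beside 21.2%, and for KO NPC 632, or 37.2% beside 26.5%. In the opposite direction, 117 members (6.88%) separated for HET and 149 (8.76%) for KO in ESC, and 143 (8.41%) and 288 (16.9%) in NPC, beside 18.6%, 22.6%, 22.7% and 27.2% of all transcripts. As the position was chosen from these comparisons, the counts describe the members and test nothing.

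Along the row order each block of 100 members had a median above 0, by little in some blocks of KO NPC. The members nearest the start did not show the shift. The 1700 members formed 17 blocks of 100 neighbours, and the median of each block, relative to the other transcripts, was above 0 in all 17 for each mutant group in each cell type. In HET ESC the blocks ran from 0.24 to 0.55 with an SD of 0.0907 between blocks, and in HET NPC from 0.12 to 0.39 with an SD of 0.066. In KO ESC they ran from 0.24 to 0.73 with an SD of 0.159. There 5 of the 17 lay above log2(3/2), which no block of the stretch did in the other mutant groups. In KO NPC they ran from 0.019 to 0.35 with an SD of 0.087. There 13 of 182 blocks elsewhere lay above the median member block of 0.18. The matching counts were 2 for HET and 2 for KO in ESC, and 3 for HET in NPC. Of 182 blocks elsewhere, 3 exceeded 0.25 for HET and 3 for KO in ESC, and 5 and 5 in NPC, where 15, 16, 16 and 3 blocks of the stretch did. The limit of 0.25 had entered the choice of the stretch. Some blocks elsewhere also lay above log2(3/2): 1 for HET and 2 for KO in ESC, and 1 and 2 in NPC. The highest of them stood at 0.88, 0.87, 0.81 and 1.04 in the same order, above the highest block of the stretch. The difference between replicates of 1 group ranged from -0.19 to 0.22 over the member blocks. The lower blocks of KO NPC and the lowest of HET NPC lay within that range. KO against HET was below 0 in all 17 blocks in NPC and above 0 in 11 of 17 in ESC.

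**Figure D4:**
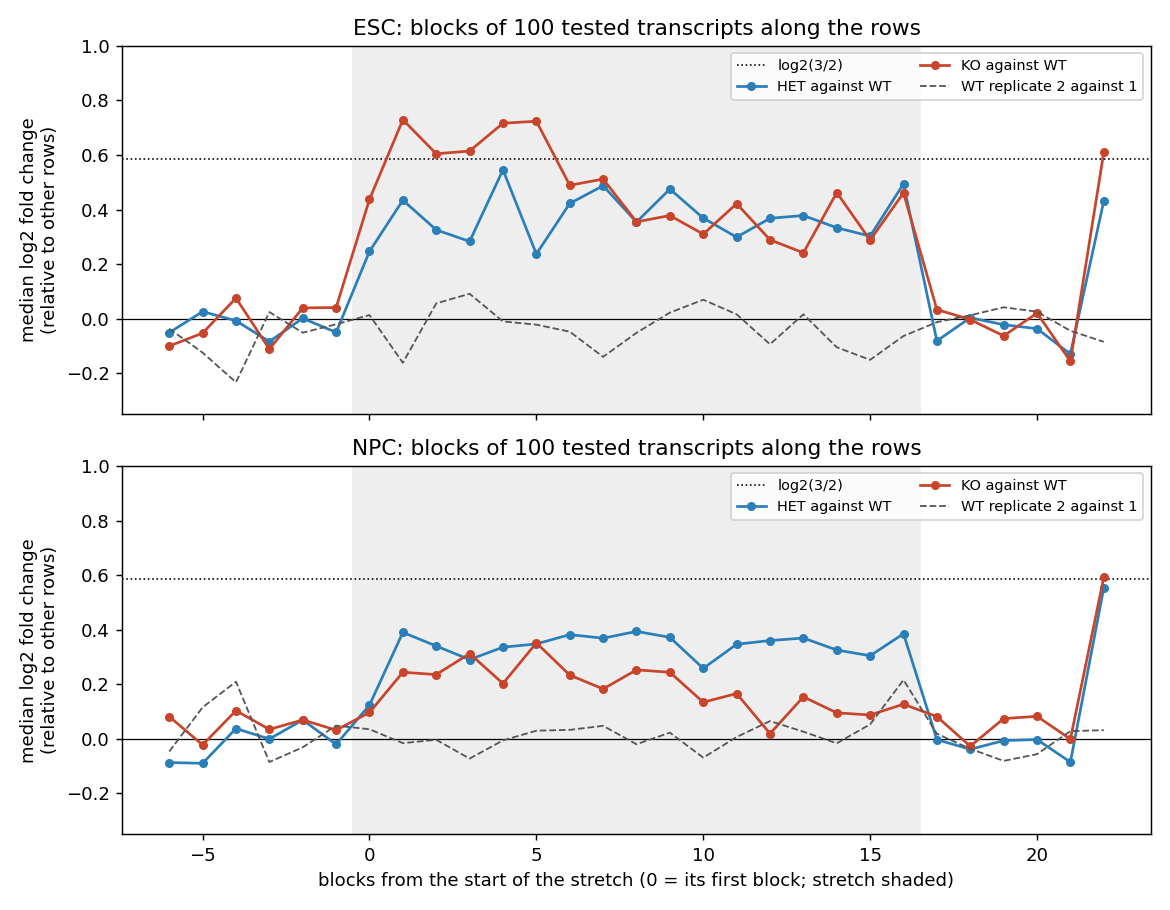
Median log2 fold change of blocks of 100 neighbouring transcripts relative to the other transcripts (y axis) against block position (x axis, 0 is the first block of the shaded stretch), for each mutant group against WT, with log2(3/2) as a dotted line and the difference between the WT replicates as a dashed line. The blocks next to the stretch lie near 0 (the last block plotted, beyond it, is higher again), HET blocks keep a similar height across the stretch, and KO in ESC is higher in the first blocks than in the later ones.

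The shift began a little inside the first member and stopped close to the last. The block just before the stretch stood at -0.05 (HET) and 0.04 (KO) in ESC and at -0.02 and 0.03 in NPC, and the first block inside at 0.25, 0.44, 0.12 and 0.097. The last block inside stood at 0.49, 0.46, 0.39 and 0.13, and the block just after at -0.08, 0.03, -0.0029 and 0.08. In windows of 25 transcripts the first window inside was still at -0.15, -0.0036, -0.13 and -0.15, in the same order of groups. The next stood at 0.19, -0.045, 0.23 and 0.11, and the third at 0.47, 1.0, 0.21 and 0.094. At the far end the last window inside was at 0.38, 0.38, 0.36 and -0.0013, and the first window outside at -0.08, -0.02, -0.04 and -0.08.

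A change point was placed near each end by splitting the transcripts within 400 on either side into a pair of levels with the least absolute deviation. At the start it fell 30 transcripts inside the first member in HET ESC (between uc007hok.1 and uc007hol.1, row 5695), 38 inside in HET NPC (between uc007hov.1 and uc007hoz.1, row 5711), 49 inside in KO ESC (row 5796) and 124 inside in KO NPC (row 5938). At the far end it fell 3 transcripts before the last member in both HET ESC and KO ESC (row 9687) and 5 before it in HET NPC (row 9670). In KO NPC, where the shift was smallest, it fell 318 before the end (row 8849). With the 4 comparisons averaged, the split fell 38 transcripts inside the start and 5 before the end. The 38 members before it had medians of -0.13, -0.12, -0.07 and 0.09 for the same order of groups, relative to the other transcripts, and the 1657 between the splits had 0.38, 0.46, 0.35 and 0.19. These change points were estimated on the data that set the limits and carry no error.

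Single transcripts at the limits were too scarce or too variable between libraries to place the ends any closer. The first member, uc007hmr.2, had 3.80 and 8.68 CPM in WT ESC, 8.76 and 0 in HET ESC and 7.62 and 0 in KO ESC. Its neighbour outside, uc007hms.2, had 0 and 0 CPM in WT ESC, 1.46 and 10.3 in HET ESC and 2.69 and 9.48 in KO ESC. In both mutant groups of ESC the first was at 0 in the library in which the second was highest. This was not so in HET NPC, with 0 and 0.452 CPM for the first beside 2.83 and 12.3 for the second. The last member, uc007mwp.2, had 7 and 3 CPM in WT ESC, 12.2 and 0 in HET ESC and 7.77 and 3.91 in KO ESC, and the groups overlapped. The nearest tested transcript after it, uc007mwo.2, had counts in every library. It stood at 16.8 and 24.1 CPM in WT ESC, 6.96 and 22.2 in HET ESC and 18.5 and 21.9 in KO ESC, also with overlap.

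Within the stretch, KO ESC stood higher in the first part than in the later part, and HET stood at similar levels in both. The same split, which places exactly 1 change of level, was applied to KO against WT in ESC over the members. It fell between uc007jjc.1 and uc007jjd.1 and divided the stretch into 585 transcripts in rows 5649 to 7029 and 1115 in rows 7030 to 9690. This division was made after the profile had been seen, so the contrast between these segments in KO ESC is a description. KO against WT in ESC had a shift of 0.67 in the first segment, 113.8% of log2(3/2), and 0.36 in the second, 62.2% of it. In HET ESC the segments stood at 0.35 and 0.38, and in HET NPC at 0.31 and 0.36. KO NPC stood at 0.24 and 0.16. The segments were alike in level and length, with a median of the members' mean levels of 12.8 and 10.9 CPM and a median length of 2748 and 2954 bases.

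The difference between segments was present in each KO ESC library. Relative to the WT mean, the KO ESC libraries stood at 0.67 and 0.63 in the first segment and at 0.40 and 0.35 in the second. The HET ESC libraries stood at 0.35 and 0.35 in the first and 0.39 and 0.38 in the second, the HET NPC libraries at 0.31 and 0.29 and then 0.33 and 0.35, and the KO NPC libraries at 0.22 and 0.23 and then 0.14 and 0.15. KO and HET ESC libraries did not overlap in the first segment and overlapped in the second. KO against HET in ESC was accordingly 0.29 in the first segment and -0.011 in the second, so by these medians KO stood above HET in the first segment only. The split was placed on the same KO ESC libraries, so this too is a description. In NPC, KO against HET was -0.10 and -0.19. Where the split fell differed between comparisons. For KO against HET it fell after 603 members in ESC and after 599 in NPC (rows 7074 and 7057). For KO against WT in NPC it fell after 1043 members (row 8110), with 0.24 before and 0.10 after, and for NPC against ESC in KO after 829 (row 7633), with -0.40 and -0.21. For HET against WT it fell after 30 members in ESC and after 27 in NPC, near the start of the stretch. The first segment of KO ESC includes the 49 members before the change point near the start. These comparisons share libraries, and the splits carry no error.

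**Figure D5:**
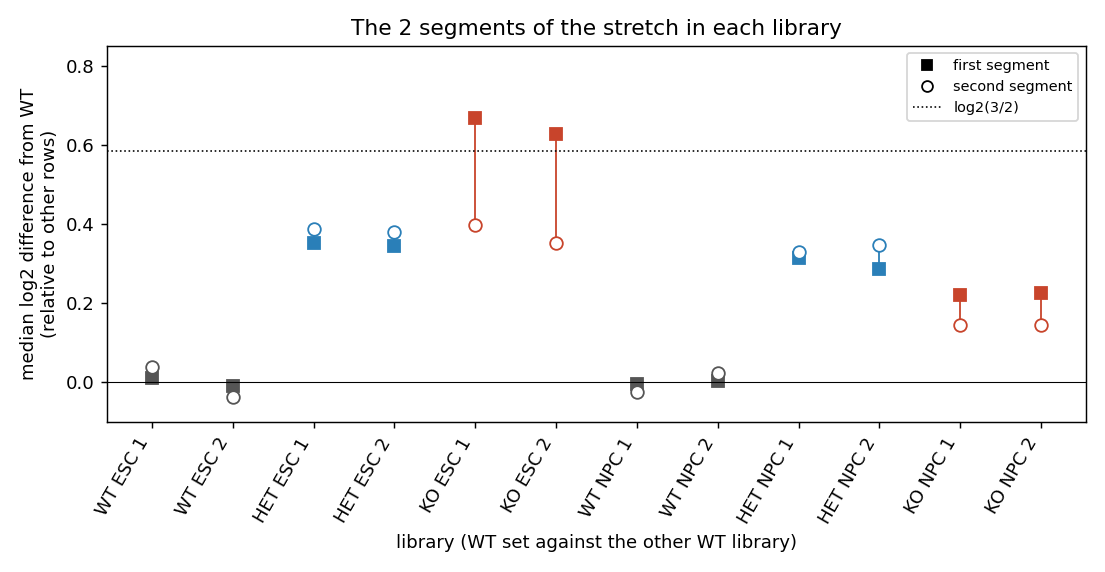
Median log2 level of each library relative to the WT mean of its cell type (for a WT library, to the other WT library) and to the other transcripts (y axis), for the first 585 and the last 1115 members (symbols), by library (x axis), with log2(3/2) as a dotted line. In KO ESC the first segment lies above the dotted line and the second near the HET level. In KO NPC the second segment is also the lower, by less, and the segments of HET and WT lie close together.

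Few members passed the threshold one at a time. The comparisons of a mutant group with WT had chosen the stretch, so the calls in them, and in KO against HET, which uses the same mutant libraries, describe the members, and nothing is read from their number beside the background. With edgeR's quasi-likelihood test, Benjamini-Hochberg adjusted over all 30021 transcripts at 0.05, 77 members were higher and 1 was lower in KO than WT ESC. That is 3.09% and 0.0401% of the 2494 members tested, beside 0.716% and 0.49% of all transcripts (1.21% in both directions), and 35.8% of all higher calls fell on the stretch. The first segment held 54 of the higher calls among 859 transcripts and the second 23 among 1635. The number of calls depended on single libraries, among the members and over all transcripts alike. It fell without either KO ESC library or without WT ESC replicate 2, and rose without WT ESC replicate 1. DESeq2 called 434, where it called 2728 of all transcripts, and edgeR with no scaling beyond total counts called 9, where it called 163 of all. In HET ESC 0 members were called either way (background 0.02% higher and 0.0133% lower, 0.0333% in all). At an unadjusted p under 0.05, 406 were higher and 41 lower, where 2603 of all 30021 transcripts passed. DESeq2 called 215, where it called 1058 of all. In HET NPC 0 were called (background 0.00999% and 0.0%). At an unadjusted p under 0.05, 317 were higher and 40 lower, where 2372 of all transcripts passed, and DESeq2 called 152, where it called 957 of all. At an unadjusted p under 0.05 in KO NPC, 221 of the 2494 members were higher and 86 lower, where 3799 of all 30021 transcripts passed. DESeq2 called 187 members, where it called 2241 of all. With edgeR's adjusted test in KO NPC, 0 were higher and 1 lower (background 0.0766% and 0.137%, 0.213% in all). The 1 call was lost when any 1 of the 4 libraries was left out. KO against HET gave 0 calls by edgeR in ESC (background 0.00333% higher) and 0 in NPC (background 0.00666% lower). At an unadjusted p under 0.05, 181 were higher and 75 lower in ESC and 40 higher and 143 lower in NPC, and DESeq2 called 124 and 51. Of all transcripts, 2793 in ESC and 2216 in NPC had such an unadjusted p, and DESeq2 called 1233 and 729.

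The members with the largest differences in KO ESC moved by more than the stretch as a whole. uc007hxb.2, in the first segment, had 3.08 and 3.41 CPM in the WT ESC libraries, 13.3 and 12.6 in HET and 17.6 and 31.6 in KO, a log2 fold change of 2.92 (SE 0.386) for KO. In NPC it had 9.58 and 17.5 CPM in WT, 14.1 and 18.2 in HET and 19.8 and 16.8 in KO, and the groups overlapped. uc007lsn.2, in the second segment, had 7.47 and 8.68 CPM in WT ESC, 31.1 and 17.7 in HET and 58.5 and 36.9 in KO, a log2 fold change of 2.56 (SE 0.401). The ESC genotypes were in the order WT, HET, KO with no overlap in either transcript. The 1 member called lower, uc007kzw.1, had 30.2 and 36.7 CPM in WT ESC, 36.9 and 25.6 in HET and 14.9 and 13.8 in KO, a log2 fold change of -1.22 (SE 0.206), and HET overlapped WT. Each of the 3 calls was lost when any 1 of the KO or WT ESC libraries was left out.

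The most abundant members, by mean CPM without regard to length, showed both the shared shift and departures from it. uc007jra.2 had 1410 and 1520 CPM in WT ESC, 2030 and 2020 in HET and 2250 and 2080 in KO. In NPC it had 1160 and 968 CPM in WT, 1230 and 1200 in HET and 1000 and 1120 in KO, so that the mutant libraries were above WT in ESC and KO overlapped WT in NPC. uc007msi.1 had 1170 and 1320 CPM in WT ESC, 1810 and 1810 in HET and 2000 and 1950 in KO, and in NPC 4340 and 4070 in WT, 3560 and 3300 in HET and 2200 and 2860 in KO. Its order was thus WT, HET, KO in ESC and the reverse in NPC, with no overlap between groups. uc007ikf.1 had 2720 and 3230 CPM in WT ESC, 3350 and 3950 in HET and 3660 and 4500 in KO, and 1730 and 1420, 1800 and 2150, and 1960 and 2290 in NPC, with WT lowest throughout. uc007joh.1 had 3020 and 2910 CPM in WT ESC, 3940 and 4110 in HET and 2560 and 3760 in KO. KO overlapped WT in ESC for this transcript, and its log2 fold change there, 0.09, turned to -0.21 without KO ESC replicate 2 and to -0.11 with no scaling beyond total counts. In NPC it had 1620 and 1590 CPM in WT, 2520 and 2140 in HET and 2000 and 2740 in KO, and both mutant groups lay above WT.

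Differentiation in WT cells, a comparison that the choice of the stretch did not use, left its overall level where the other transcripts were. The median log2 fold change of NPC against ESC in WT was 0.011 for members and 0.0042 for the others, a shift of 0.0064. Single members changed about as often as any transcript. With edgeR's quasi-likelihood test and Benjamini-Hochberg adjustment, 150 members (6.01%) rose and 136 (5.45%) fell, beside 6.83% and 5.33% of all transcripts (12.2% in both directions). The first segment held 50 rises and 51 falls and the second 100 and 85. Fewer calls were made when either WT NPC library was left out, among members and over all transcripts alike. Whether the remaining member calls were among the 286 of the main fit was not counted. With no scaling beyond total counts, 220 members rose and 61 fell, where 2703 and 848 of all transcripts did. The median of all transcripts was then 0.29 (log2) in this comparison, beside 0.025 in the main fit.

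The members with the largest changes in WT differentiation moved far from that median. uc007jkm.1 rose from 0.237 and 1.45 CPM in the WT ESC libraries to 66.8 and 82.3 in WT NPC, which is 6.40 on the log2 scale (edgeR adjusted p = 0.00117, SE 0.672). uc007lby.1 rose from 0.356 and 0.414 CPM to 36.5 and 25.4 (log2 6.29, SE 0.469, edgeR adjusted p = 0.000311). The mutants had similar levels of uc007lby.1, at 0.154 to 0.601 CPM in the HET and KO ESC libraries and 22.5 to 37.4 in the NPC ones. uc007lzf.1 fell from 14.8 and 8.68 CPM in WT ESC to no counts in either WT NPC library, at least 57.7-fold lower against a floor of 3 counts per library (0.205 CPM, edgeR adjusted p = 0.0321). uc007lpu.1 fell from 26.8 and 28.3 CPM to 0.909 and 0 (log2 fold change -5.90, edgeR adjusted p = 0.0192, SE 1.23). In the KO ESC libraries uc007lpu.1 stood at 6.54 and 2.26 CPM, below the WT ESC libraries. The rises held when any 1 WT library was left out; the fall of uc007lzf.1 was lost without any 1 of the 4, and that of uc007lpu.1 without either WT ESC library.

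In the mutants, the level of the stretch in NPC against ESC followed from the shifts above, and the same libraries are used in both. In HET the median of members minus others was -0.045, and in KO it was -0.30, with -0.40 in the first segment and -0.24 in the second. In HET 139 members (5.57%) rose and 131 (5.25%) fell with edgeR's test, beside 6.3% and 5.16% of all transcripts (11.5% in both directions). In KO 106 (4.25%) rose and 260 (10.4%) fell, beside 6.59% and 6.42% (13.0% in both directions). In the first segment of KO 25 rose and 131 fell, and in the second 81 and 129. With no scaling beyond total counts, 172 members rose and 115 fell in KO, where 3129 of all transcripts rose and 952 fell. In HET 209 members rose and 58 fell, where 2765 and 774 of all transcripts did. The median of all transcripts in KO was then 0.34 (log2), so the turned balance in KO was not particular to the members. The shift relative to the other transcripts is not affected by a scaling of whole libraries. The counts of calls fell in HET and in KO when any 1 of their libraries was left out, among members and over all transcripts alike.

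Whether a genotype difference depended on the cell type was tested by an interaction term for each transcript. With edgeR's quasi-likelihood test, 0 members were called for HET and 0 for KO after Benjamini-Hochberg adjustment, and 1 transcript was called in each over all 30021. At an unadjusted p under 0.05 there were 140 members for HET, or 5.61% beside 5.22% of all transcripts, and 312 for KO, or 12.5% beside 9.16%. The term is built from the comparisons with WT that chose the stretch, so these counts of members are a description. DESeq2 was not run for this term. No test was made of the difference in the whole stretch between cell types, because its values chose the members.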

How the data were processed

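Per the labels' protocols, ribosomal RNA was removed from total RNA and a SMARTer kit was used to build libraries that keep the strand. Reads were handled with cutadapt 1.16 and kallisto on build mm9, per the submitters' processing notes, and for kallisto no version is given in the sources used here. The deposited tables hold, per the file headers, an estimated count and a TPM value for each transcript. Estimated counts divide reads among compatible transcripts, so neighbouring isoforms can trade reads and a single transcript is less certain than a median over many. The deposited TPM values were used in 1 alternative.

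Sets of transcripts with counts equal to 2 decimals in all libraries and a total of at least 10 (252 transcripts in 99 sets) were merged, which left 55266 features. In 1 set members were merged with other transcripts, and that set was counted inside the stretch. Counts were rounded, filtered with filterByExpr at a minimum count of 10, TMM-scaled and fitted with edgeR 4.0.16 in R 4.3.3, with 1 quasi-likelihood model of 6 group means over 12 libraries (6 residual degrees of freedom). Tests were two-sided with Benjamini-Hochberg adjustment over 30021 transcripts. The biological coefficient of variation was 0.592, and 9062447 to 14766212 counts per library stood behind the values. Levels are CPM after TMM scaling, and the index of each library used log2 CPM with a prior count of 2. Each standard error was obtained from the fold change and the F statistic (log2 change over root F). DESeq2 1.42.0, other filters and scalings, a replicate block and leaving out each library were tried as alternatives. The scripts were tested on simulated data.

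Transcripts named are those at the limits of the stretch and at the change points, the 4 members with the highest mean CPM, and at most 2 rises and 2 falls for NPC against ESC in WT and for KO against WT in each cell type, among members with an adjusted p under 0.05, a mean of at least 5 CPM and no overlap between groups. None met this in KO NPC. The members, the comparisons and the rule for names were chosen with earlier results of these data known. Genomic position, gene names and sequences were not used here.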

Additional observations from a re-analysis of the deposited data

Results flagged for a closer look

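KO stood above HET in both ESC libraries and below HET in both NPC libraries, as the index of each library shows without overlap. The shift of the stretch for KO against HET was 0.0979 in ESC and -0.1614 in NPC on the log2 scale. In ESC it was 0.29 in the first segment and -0.011 in the second. By share of counts the HET and KO libraries of ESC overlapped. The difference between the cell types in the shift of KO against HET was not tested.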

How the results depend on the processing

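No alternative changed the direction of a shift of the stretch. In the order HET ESC, KO ESC, HET NPC, KO NPC, KO against HET in ESC and in NPC, log2(TPM + 1) gave 0.30, 0.34, 0.29, 0.16, 0.067 and -0.13. The ratio of summed counts gave 0.28, 0.31, 0.20, 0.11, 0.027 and -0.0904, and without the most abundant transcript 0.39, 0.27, 0.13, 0.040 and -0.14 from KO ESC on. Without a CPM minimum HET ESC had 0.35, KO ESC 0.42, KO NPC 0.18 and KO against HET in NPC -0.14. With a minimum of 10 CPM KO ESC had 0.48, KO NPC 0.21 and KO against HET in NPC -0.15. Without the 200 members nearest each end HET NPC had 0.35 and KO NPC 0.20, and between the change points HET NPC had 0.35. Leaving out 1 library gave 0.34 to 0.42, 0.45 to 0.49, 0.32 to 0.33, 0.17 to 0.20, 0.0735 to 0.11 and -0.17 to -0.14. The causes were not tested.

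Counts of members called moved far more. DESeq2 called 215, 434, 152, 187, 124 and 51 in the same order, and 547, 562 and 649 for NPC against ESC in WT, HET and KO. Over all transcripts it called 1058, 2728, 957, 2241, 1233 and 729, and 6571, 6674 and 6971. For KO ESC, with 78 calls, edgeR made 48 with no filter on low counts and 9 with no scaling beyond total counts. Over all transcripts these settings made 214 and 163, beside 362 in the main fit. For KO NPC the 1 call became 0 under both. Leaving out 1 library gave 0 to 4 in HET ESC, 0 to 96 in KO ESC, 0 in KO NPC, and 106 to 216, 107 to 152 and 138 to 191 for NPC against ESC in WT, HET and KO; fewer libraries leave less to estimate the spread from. In a group with 1 library left, that library is assumed to vary like the others. For uc007joh.1, KO against WT in ESC turned to -0.11 with no scaling beyond total counts and to -0.21 without KO ESC replicate 2.

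Over single transcripts, the correlation of replicate differences between groups ran from -0.0779 to 0.0823. Medians of blocks moved alike in some places and not in others. Replicate 2 against 1 in WT, HET and KO ESC was -0.16, -0.17 and -0.19 in block 2 of the stretch. In block 4 it was 0.09, -0.02 and 0.04. In NPC it was 0.22, 0.19 and -0.05 in block 17. Whether the replicate numbers pair the libraries is therefore not settled. With the replicate number as a block, KO ESC had 11 calls and KO NPC 0, where 53 and 3 of all transcripts were called. The block left the shifts at 0.37, 0.46, 0.34, 0.19, 0.10 and -0.16. With 2 libraries a group and shared reads between isoforms, depth limits single transcripts more than medians over the stretch. The change between segments and the limits of the stretch have no replicate of their own.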
